A study of Mus musculus with 24 samples.

Results

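The miR-17-92 and miR-106b-25 clusters are related groups of miRNAs, each cut from 1 primary transcript. The 9 mature miRNAs described here are the main arms of both: miR-17-5p (MIMAT0000649), miR-18a-5p (MIMAT0000528), miR-19a-3p (MIMAT0000651), miR-20a-5p (MIMAT0000529), miR-19b-3p (MIMAT0000513) and miR-92a-3p (MIMAT0000539) for miR-17-92, and miR-106b-5p (MIMAT0000386), miR-93-5p (MIMAT0000540) and miR-25-3p (MIMAT0000652) for miR-106b-25. They were chosen by mature accession, with the reads of identical copies added together, from 1907 mature miRNAs at 2045 loci. A miRNA guides a silencing complex to messenger RNAs that pair with its seed, bases 2 to 8, and members that share a seed can share targets. The miR-17-92 cluster is known as a proliferation-promoting, MYC-induced cluster that mouse B cell development requires, and in cultured mouse preadipocytes it promotes fat cell differentiation. miR-106b and miR-93 are known from mouse brown fat cells as miRNAs whose knockdown raises thermogenic genes.

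Small RNA was sequenced from the subcutaneous adipose tissue of chow-fed female mice kept at 22 degrees C, in 4 groups of 6 libraries: trained kinase dead, sedentary kinase dead, trained wild type and sedentary wild type. Trained mice ran on a treadmill for 1 hour on 5 days a week over 6.5 weeks at 16 m/min, and the labels add a freely available running wheel without saying whether sedentary mice had one. The inactive kinase, the allele, the strain, the age and the cells in which it is inactive have no entry in the labels used here. The labels do not tie each library to an animal of its own, and the spread that the p-values rest on may be technical.

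The libraries held 1601209 to 23593237 counted reads, and levels are given in CPM (read counts scaled to a common library size) after TMM scaling, a correction for library composition. The list of 4 miRNAs that are abundant in fat (miR-148a-3p, miR-378a-3p, miR-193b-3p and miR-103-3p, none of them restricted to fat) summed to 39580 to 70140 CPM, and all 4 were detected in every library. Before any comparison, 7 libraries with more than 2000 CPM of the lymphocyte miRNA miR-150-5p stood apart from the other 17. It lay at 3631 to 6740 CPM in the 7, against 541 to 1015 CPM in the 17. The 7 comprise 2 trained kinase dead, 2 sedentary kinase dead, 2 trained wild type and 1 sedentary wild type library. The cluster sums and the members' log2 fold changes are also given without them, which leaves 4, 4, 4 and 5 libraries in the groups in the same order.

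The mature sequences are shown because the seeds group the members and because only a few bases tell some of them apart. They are RefSeq sequences on GRCm38.p6, written 5′ to 3′, with the seed in capitals. The first set shares the seed AAAGUGC, the second AUUGCAC and the third GUGCAAA, and miR-18a-5p has a seed of its own among the members.
miR-17-5p: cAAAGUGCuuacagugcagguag
miR-20a-5p: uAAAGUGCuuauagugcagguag
miR-106b-5p: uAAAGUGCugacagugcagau
miR-93-5p: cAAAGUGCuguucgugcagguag
miR-92a-3p: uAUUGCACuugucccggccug
miR-25-3p: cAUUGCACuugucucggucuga
miR-19a-3p: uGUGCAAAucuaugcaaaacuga
miR-19b-3p: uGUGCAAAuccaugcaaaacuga
miR-18a-5p: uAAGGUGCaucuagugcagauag
A related X-linked cluster, miR-106a-363, carries close relatives of the members, shown because their reads have to be told apart from those above.
miR-106a-5p: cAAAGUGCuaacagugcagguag
miR-20b-5p: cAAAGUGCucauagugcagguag
miR-18b-5p: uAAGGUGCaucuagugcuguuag
miR-363-3p: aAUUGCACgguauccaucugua
Counting from 1 at the 5′ end, miR-17-5p and miR-106a-5p differ by 1 base, U10A. miR-17-5p and miR-20a-5p differ by C1U and C12U, outside the seed. miR-19a-3p and miR-19b-3p differ by U11C, and miR-92a-3p and miR-25-3p differ by U1C, C14U and C18U over the 21 bases of the shorter one.

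The miR-17-92 hairpins lie at chr14:115043671-115044506 (GRCm38, plus strand), inside the long noncoding gene Mir17hg (chr14:115042879-115046727), and are exonic in its 1 annotated transcript. The miR-106b-25 hairpins lie at chr5:138165321-138165818 (minus strand), inside Mcm7 (chr5:138164583-138172422), which encodes a subunit of the replicative helicase. There miR-106b-5p was intronic in both transcripts that span it, and miR-93-5p and miR-25-3p were intronic in some and exonic in 1 of the 3 transcripts that span them. The X-linked cluster lies at chrX:52741693-52742567 (minus strand). No counted locus overlapped a member on the opposite strand.

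All 9 members were detected in all 24 libraries. Means over the 24 libraries, with their SD, descended from miR-92a-3p at 3810 ± 1730 CPM and miR-25-3p at 2020 ± 396 CPM to miR-93-5p at 1338 ± 153 CPM, miR-20a-5p at 1257 ± 309 CPM and miR-19b-3p at 819 ± 220 CPM. miR-17-5p followed at 472 ± 89.6 CPM, miR-106b-5p at 389 ± 66.3 CPM, miR-19a-3p at 118 ± 56.1 CPM and miR-18a-5p at 33.7 ± 13.4 CPM. miR-92a-3p was the 41st most abundant of all miRNAs in the table and miR-18a-5p the 270th. The members are 21 to 23 bases long, and the order of their levels was the same per base. Of the neighbours in this order, miR-93-5p and miR-20a-5p lay closer together than the larger of their SDs, and miR-93-5p was the higher one in 13 of 24 libraries. miR-17-5p and miR-106b-5p also lay closer than the larger SD, with miR-17-5p higher in 21 of 24 libraries. The other 6 neighbouring pairs were farther apart than the larger SD and kept their order in 23 or 24 of 24 libraries.

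The counted levels of members of 1 primary transcript were far from equal. Ligation preferences of small RNA kits also affect levels between miRNAs and were not separated from this. The miR-19b-3p and miR-92a-3p levels include reads counted at their X-linked copies. Within miR-17-92, miR-92a-3p, which is known for targeting integrin alpha5 in endothelium, made up 56.8% ± 7.85 of the summed CPM (SD, n = 24 libraries). miR-20a-5p made up 20.3% ± 4.97, miR-19b-3p 12.9% ± 1.88 and miR-17-5p 7.68% ± 1.76. miR-19a-3p made up 1.78% ± 0.339 and miR-18a-5p 0.521% ± 0.138. Of miR-19a-3p and miR-19b-3p, which share a seed, miR-19b-3p was the more abundant in every library. Within miR-106b-25, miR-25-3p made up 53.6% ± 4.35, miR-93-5p 35.99% ± 3.93 and miR-106b-5p 10.4% ± 1.13. Summed by seed over both clusters, AUUGCAC held 55.8% ± 5.89 of the members' CPM, AAAGUGC 34.7% ± 5.62, GUGCAAA 9.14% ± 1.15 and AAGGUGC 0.326% ± 0.0922.

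The opposite arm of each hairpin was counted too, and its share differed widely between hairpins. miR-106b-3p had 46125 reads in all against 82574 reads of miR-106b-5p, which is 37.1% ± 5.26 of the hairpin's reads per library (SD, n = 24), with a range of 28.1% to 49.1%. For miR-17-3p the share was 12.3% ± 2.70 and for miR-18a-3p 8.16% ± 2.97. The remaining 4 hairpins whose reads fall at 1 locus gave 1.05% ± 0.137 for miR-93-3p, 0.257% ± 0.0838 for miR-25-5p, 0.239% ± 0.264 for miR-19a-5p and 0.183% ± 0.126 for miR-20a-3p. miR-17-3p averaged 65.9 ± 17.9 CPM, above miR-18a-5p, and miR-106b-3p averaged 232 ± 62.5 CPM, above miR-19a-3p. At these depths 3 reads correspond to 0.127 to 1.87 CPM, so miR-19a-5p, with 58 reads in all and 0 reads in 7 libraries, was at the limit of detection.

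miR-19b-3p and miR-92a-3p each have an identical copy in the X-linked cluster, so reads that hold only the mature sequence cannot be assigned to a chromosome. In the deposited counts 50.2% of miR-19b-3p reads stood at the X copy, with 47.2% to 51.7% per library, close to an even split. For miR-92a-3p the X copy held 11.8% of the reads, and 7.52% to 16.6% per library, far from an even split. How reads were assigned to the copies is not given, and the cause of this difference was not tested. The opposite arms do differ between the copies, so they are specific to a locus. Of those reads, miR-19b-1-5p on chromosome 14 had 110 and miR-19b-2-5p on the X chromosome had 1, a chromosome 14 share of 99.1% (95% Clopper-Pearson interval 95.1% to 99.98%). miR-92a-1-5p on chromosome 14 had 792 reads and miR-92a-2-5p on the X chromosome had 18, a share of 97.8% (95% interval 96.5% to 98.7%). These intervals cover counting error only, since reads without molecular identifiers are not independent molecules.

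The X-linked relatives were scarce beside the members. Per library, miR-106a-5p stood at 2.996% ± 2.64 of miR-17-5p, miR-20b-5p at 2.30% ± 2.06 of miR-20a-5p, miR-18b-5p at 5.75% ± 5.86 of miR-18a-5p and miR-363-3p at 0.459% ± 0.287 of miR-92a-3p (SD, n = 24). miR-32-5p, a relative of miR-25 outside the clusters with the same seed, stood at 9.27% ± 2.48 of miR-25-3p. miR-367-3p, another carrier of that seed and known from embryonic stem cells, had 0 reads in all 24 libraries. miR-92b-3p carries the seed too, and its level was not examined here.

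Summed over its 6 members, miR-17-92 reached 6770 ± 2549 CPM in trained kinase dead, 6219 ± 2481 CPM in sedentary kinase dead, 6393 ± 1733 CPM in trained wild type and 6661 ± 2454 CPM in sedentary wild type (SD, n = 6 each). For the 3 members of miR-106b-25 the sums were 3798 ± 432 CPM in trained kinase dead, 3537 ± 437 CPM in sedentary kinase dead, 3954 ± 514 CPM in trained wild type and 3700 ± 680 CPM in sedentary wild type. Every difference between these group means was smaller than the SD of the groups compared, and the ranges overlapped. The trained mean was 1.09 times the sedentary mean in kinase dead and 0.960 times in wild type for miR-17-92, and 1.07 times in both genotypes for miR-106b-25. The ratio of the miR-17-92 sum to the miR-106b-25 sum was 1.75 ± 0.454 in trained kinase dead, 1.72 ± 0.482 in sedentary kinase dead, 1.60 ± 0.246 in trained wild type and 1.77 ± 0.380 in sedentary wild type. No test is given for these sums. Without the 7 miR-150-5p-high libraries, miR-17-92 summed to 5270 ± 684 CPM in trained kinase dead (SD, n = 4), 4701 ± 527 CPM in sedentary kinase dead (n = 4), 5364 ± 488 CPM in trained wild type (n = 4) and 5768 ± 1241 CPM in sedentary wild type (n = 5). In the same libraries miR-106b-25 summed to 3527 ± 97.8 CPM in trained kinase dead, 3291 ± 277 CPM in sedentary kinase dead, 3692 ± 365 CPM in trained wild type and 3470 ± 424 CPM in sedentary wild type.

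**Figure D1:**
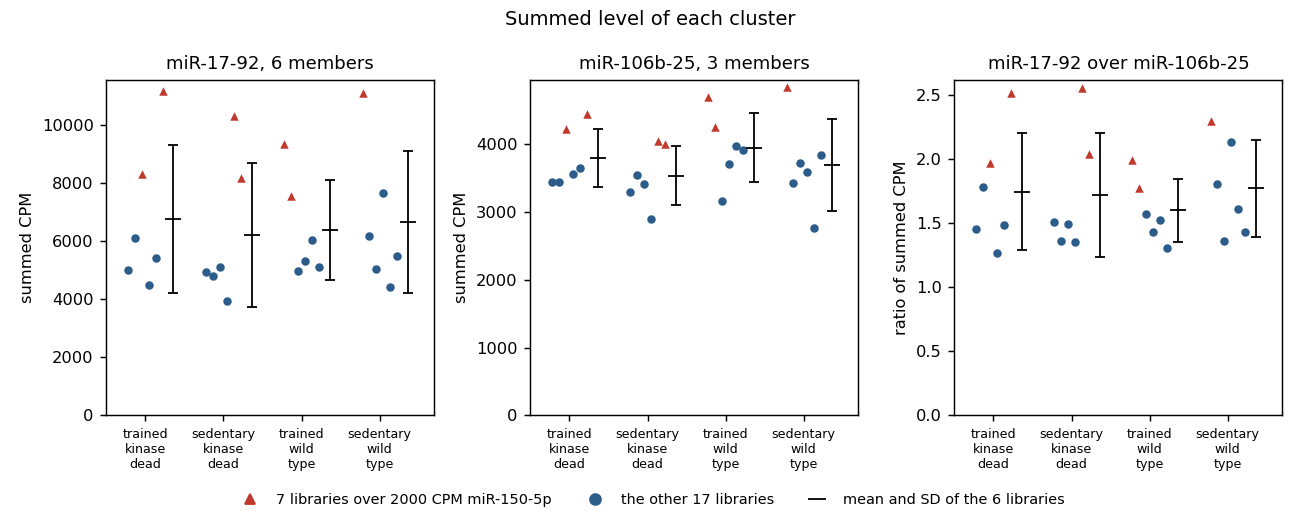
Summed CPM of the 6 miR-17-92 members and of the 3 miR-106b-25 members, and the ratio of both sums, per library (points) in the 4 groups, with the mean and SD of 6 libraries beside them. Triangles mark the 7 libraries over 2000 CPM of miR-150-5p, which hold the highest sums of their group in every panel of summed CPM, while the 4 group means of miR-17-92 stay between 6219 and 6770 CPM.

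Member by member, the 4 groups overlapped as well. miR-92a-3p averaged 3998 ± 2072 CPM in trained kinase dead, 3602 ± 1854 CPM in sedentary kinase dead, 3631 ± 1388 CPM in trained wild type and 4011 ± 1982 CPM in sedentary wild type (SD, n = 6 each). miR-20a-5p averaged 1307 ± 389 CPM in trained kinase dead, 1200 ± 307 CPM in sedentary kinase dead, 1331 ± 250 CPM in trained wild type and 1190 ± 336 CPM in sedentary wild type. Its sister miR-17-5p, with the same seed, averaged 486 ± 94.2 CPM in trained kinase dead, 452 ± 96.1 CPM in sedentary kinase dead, 493 ± 89.1 CPM in trained wild type and 459 ± 97.1 CPM in sedentary wild type. For both, the 2 trained means were above the 2 sedentary means by less than the SDs. miR-19b-3p averaged 828 ± 231 CPM in trained kinase dead, 812 ± 242 CPM in sedentary kinase dead, 801 ± 211 CPM in trained wild type and 837 ± 255 CPM in sedentary wild type. The scarcer miR-19a-3p averaged 119.8 ± 55.5 CPM in trained kinase dead, 121.3 ± 64.2 CPM in sedentary kinase dead, 107.4 ± 44.7 CPM in trained wild type and 124.2 ± 71.2 CPM in sedentary wild type. Between groups these miR-19 means differed by far less than libraries within a group did. miR-106b-5p averaged 392.3 ± 55.6 CPM in trained kinase dead, 382 ± 71.0 CPM in sedentary kinase dead, 384 ± 60.6 CPM in trained wild type and 398 ± 90.6 CPM in sedentary wild type. The levels of miR-93-5p, miR-25-3p and miR-18a-5p are given with the tests.

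The effect of training was tested within each genotype with edgeR's quasi-likelihood test over 582 miRNAs, all 9 members among them, with Benjamini-Hochberg adjustment and a threshold of 0.05. In kinase dead mice no member passed, and neither did any of the 582 miRNAs (0.0%). With an unadjusted p under 0.05 there were 14 miRNAs by edgeR and 15 by DESeq2, which made 0 calls, and no member was among the edgeR ones. miR-93-5p, known for repressing the cell cycle inhibitor p21, had the smallest p of the members. Its lowest, median and highest levels were 1282, 1316 and 1441 CPM in trained kinase dead, against 965, 1248 and 1358 CPM in sedentary kinase dead. The groups overlapped, and the log2 fold change was 0.13 (SE 0.11, adjusted p = 0.994 by edgeR). miR-17-5p, which shares that seed, lay at 339, 504 and 591 CPM in trained kinase dead, against 358, 417 and 615 CPM in sedentary kinase dead. Its log2 fold change was 0.11 (SE 0.17, adjusted p = 0.994 by edgeR). The other 7 members had log2 fold changes between -0.07 and 0.15, and over all 9 members 7 were above 0 with a median of 0.10, where 52.1% of all tested miRNAs were above 0 with a median of 0.01. Without the 7 miR-150-5p-high libraries miR-93-5p had 0.12, miR-17-5p 0.15 and the other members 0.03 to 0.16, and none passed.

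In wild type mice training moved no member past the threshold either, with 0.0% of the 582 miRNAs called, 31 at an unadjusted p under 0.05 by edgeR, and 38 by DESeq2, again with 0 calls. miR-18a-5p had the smallest p. Its lowest, median and highest levels were 18.6, 23.5 and 50.3 CPM in trained wild type, against 22.9, 37.7 and 65.6 CPM in sedentary wild type. The groups overlapped over most of their range, and the log2 fold change was -0.42 (SE 0.32, 95% interval -1.08 to 0.23, adjusted p = 0.860 by edgeR). The 2 libraries highest in miR-18a-5p among trained wild type were the 2 that stood apart by miR-150-5p. The highest sedentary wild type value came from the shallowest library of the series, with 112 miR-18a-5p reads among 1601209. Without the 7 miR-150-5p-high libraries the log2 fold change was -0.78 (SE 0.29, 95% interval -1.39 to -0.16, adjusted p = 0.285 by edgeR, with 4 trained and 5 sedentary libraries), still not past the threshold. Leaving out sedentary wild type replicate 4, the shallow one, gave -0.24 with all other libraries in the fit.

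miR-25-3p, known for repressing the pro-apoptotic Bim, had the next smallest p in wild type. It lay at 1492, 2229 and 2801 CPM in trained wild type, against 1516, 1778 and 2831 CPM in sedentary wild type, so the ranges were nearly the same. The log2 fold change was 0.19 (SE 0.17, adjusted p = 0.886 by edgeR). The other 7 members lay between -0.21 and 0.16. Over the 9 members 3 were above 0 and 6 below, with a median of -0.05, while 52.1% of all tested miRNAs were above 0 with a median of 0.01. Without the 7 libraries miR-25-3p had 0.24 and the other 7 lay between -0.21 and 0.22.

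**Figure D2:**
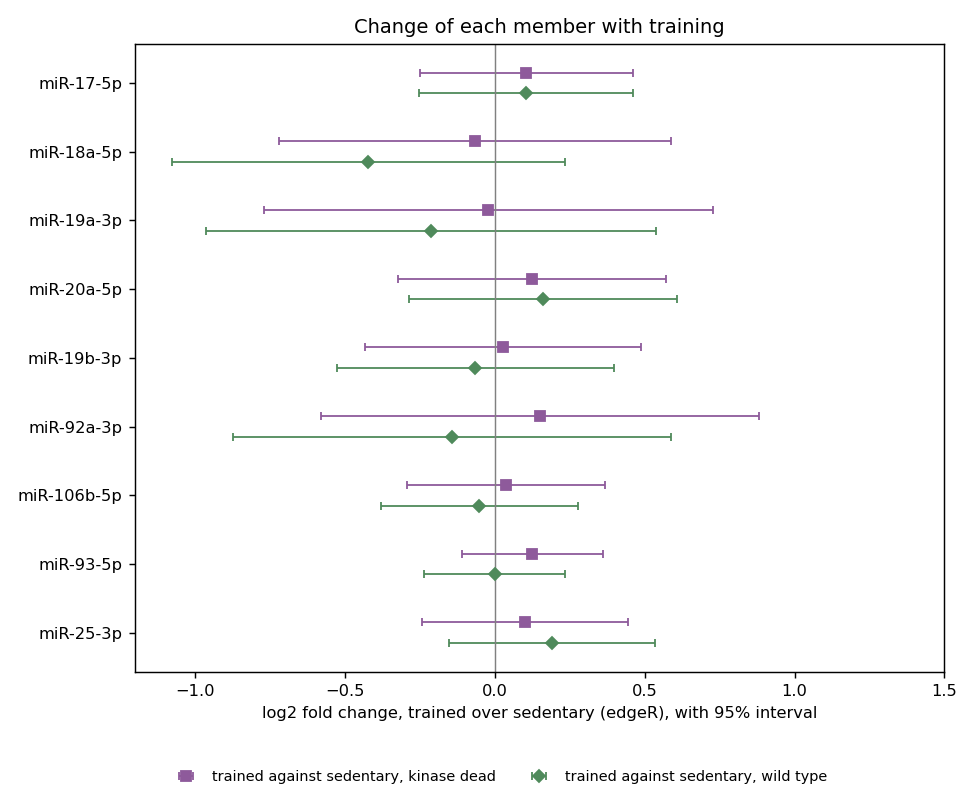
Log2 fold change of each member, trained over sedentary, in kinase dead (squares) and wild type (diamonds), with 95% intervals derived from the edgeR test statistic. All intervals cover 0, and those of miR-93-5p are the narrowest, those of miR-19a-3p, miR-92a-3p and miR-18a-5p the widest.

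Averaged over both genotypes, training gave 0.0% of 582 miRNAs called, with 36 at an unadjusted p under 0.05 by edgeR and 38 by DESeq2, which made 0 calls. The smallest p-values among the members were those of miR-25-3p, with a log2 fold change of 0.15 (SE 0.12, adjusted p = 0.951 by edgeR), and miR-18a-5p, at -0.24 (SE 0.22, adjusted p = 0.969 by edgeR). The other members lay between -0.12 and 0.14, and the 9 had a median of 0.00. With miR-150-5p as a covariate 6 miRNAs passed, none of them a member. Without the 7 libraries miR-25-3p had 0.14, miR-18a-5p -0.33 and the other members -0.09 to 0.17, and none passed. Leaving out only the shallow sedentary wild type replicate 4 gave -0.15 for miR-18a-5p. The data set limits on how large a change could have been. For miR-93-5p the 95% interval of the averaged training effect ran from 0.931-fold to 1.17-fold and for miR-106b-5p from 0.847-fold to 1.17-fold. For miR-92a-3p it ran from 0.701-fold to 1.43-fold and for miR-18a-5p from 0.612-fold to 1.16-fold, so for those members larger changes remain within the error.

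The difference between the training effects in kinase dead and wild type passed for 0.0% of the 582 miRNAs, with 13 at an unadjusted p under 0.05 by edgeR and 10 by DESeq2, which made 0 calls. miR-18a-5p had the smallest p of the members, with a difference of 0.36 on the log2 scale (SE 0.45, adjusted p = 0.993 by edgeR), followed by miR-93-5p with 0.13 (SE 0.16, adjusted p = 0.993 by edgeR). The other members lay between -0.09 and 0.29. Without the 7 miR-150-5p-high libraries the miR-18a-5p difference was 0.90 (SE 0.42, adjusted p = 0.930 by edgeR), short of the threshold. In the same fit miR-93-5p had 0.07 and the other members -0.20 to 0.36. That fit keeps sedentary wild type replicate 4, the shallow library with the highest miR-18a-5p level. Leaving out that library alone, with all others in the fit, gave a miR-18a-5p difference of 0.19.

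The kinase dead genotype was compared with wild type at each training status. In sedentary mice 0.0% of the 582 miRNAs passed, with 7 at an unadjusted p under 0.05 by edgeR and 6 by DESeq2, which made 0 calls. miR-93-5p, with the smallest p of the members, lay at 965, 1248 and 1358 CPM in sedentary kinase dead, against 983, 1459 and 1528 CPM in sedentary wild type (lowest, median and highest). The lowest library of each group lay well below its others, and 5 of the 6 sedentary wild type libraries were above every sedentary kinase dead one. The log2 fold change was -0.18 (SE 0.11, 95% interval -0.41 to 0.06, adjusted p = 0.991 by edgeR). For miR-18a-5p it was -0.29 (SE 0.32, adjusted p = 0.991 by edgeR), with 18.03, 30.2 and 51.9 CPM in sedentary kinase dead, against 22.9, 37.7 and 65.6 CPM in sedentary wild type. The other 7 members lay between -0.16 and 0.01. Without the 7 miR-150-5p-high libraries miR-93-5p had -0.17, miR-18a-5p -0.58 (SE 0.30, 95% interval -1.197 to 0.05, adjusted p = 0.978 by edgeR) and the other members -0.39 to 0.03. That fit keeps sedentary wild type replicate 4, the shallow library. Leaving out that library alone gave -0.09 for miR-18a-5p.

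In trained mice 0.0% of the 582 miRNAs passed, with 4 at an unadjusted p under 0.05 by edgeR and 9 by DESeq2, which made 0 calls. For miR-25-3p the log2 fold change was -0.08 (SE 0.17, adjusted p = 0.996 by edgeR), with 1682, 1903 and 2727 CPM in trained kinase dead, against 1492, 2229 and 2801 CPM in trained wild type. miR-93-5p had -0.05 (SE 0.11, adjusted p = 0.996 by edgeR). The other members lay between -0.03 and 0.16, and 5 of the 9 were above 0. Without the 7 libraries miR-25-3p had -0.17, miR-93-5p -0.10 and the other members -0.22 to 0.32, and none passed.

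The other arms and the X-linked relatives gave no call in any of the 6 comparisons. Of the 9 opposite arms 7 passed the filter on low counts. Their log2 fold changes with training had a median of 0.05 in kinase dead, with 5 of 7 above 0, and of -0.22 in wild type, with 1 of 7 above 0. Their differences of the training effects, kinase dead minus wild type, were above 0 for 7 of 7 with a median of 0.39, where 52.2% of all tested miRNAs were above 0. None of these 7 had an unadjusted p under 0.05 by edgeR, and their SEs ran from 0.22 to 0.58. The arms come from the same libraries, so their signs are not independent of each other. The arms under the filter were miR-19a-5p and miR-19b-1-5p. The 4 X-linked relatives had medians of 0.06 in kinase dead and 0.54 in wild type, but their SEs reached 0.97 in kinase dead and 1.04 in wild type. All 4 were higher in each of the 7 miR-150-5p-high libraries than in any other. Of these libraries 2 are trained and 1 is sedentary in wild type, against 2 and 2 in kinase dead. The part of this imbalance in the medians was not tested.

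**Figure D3:**
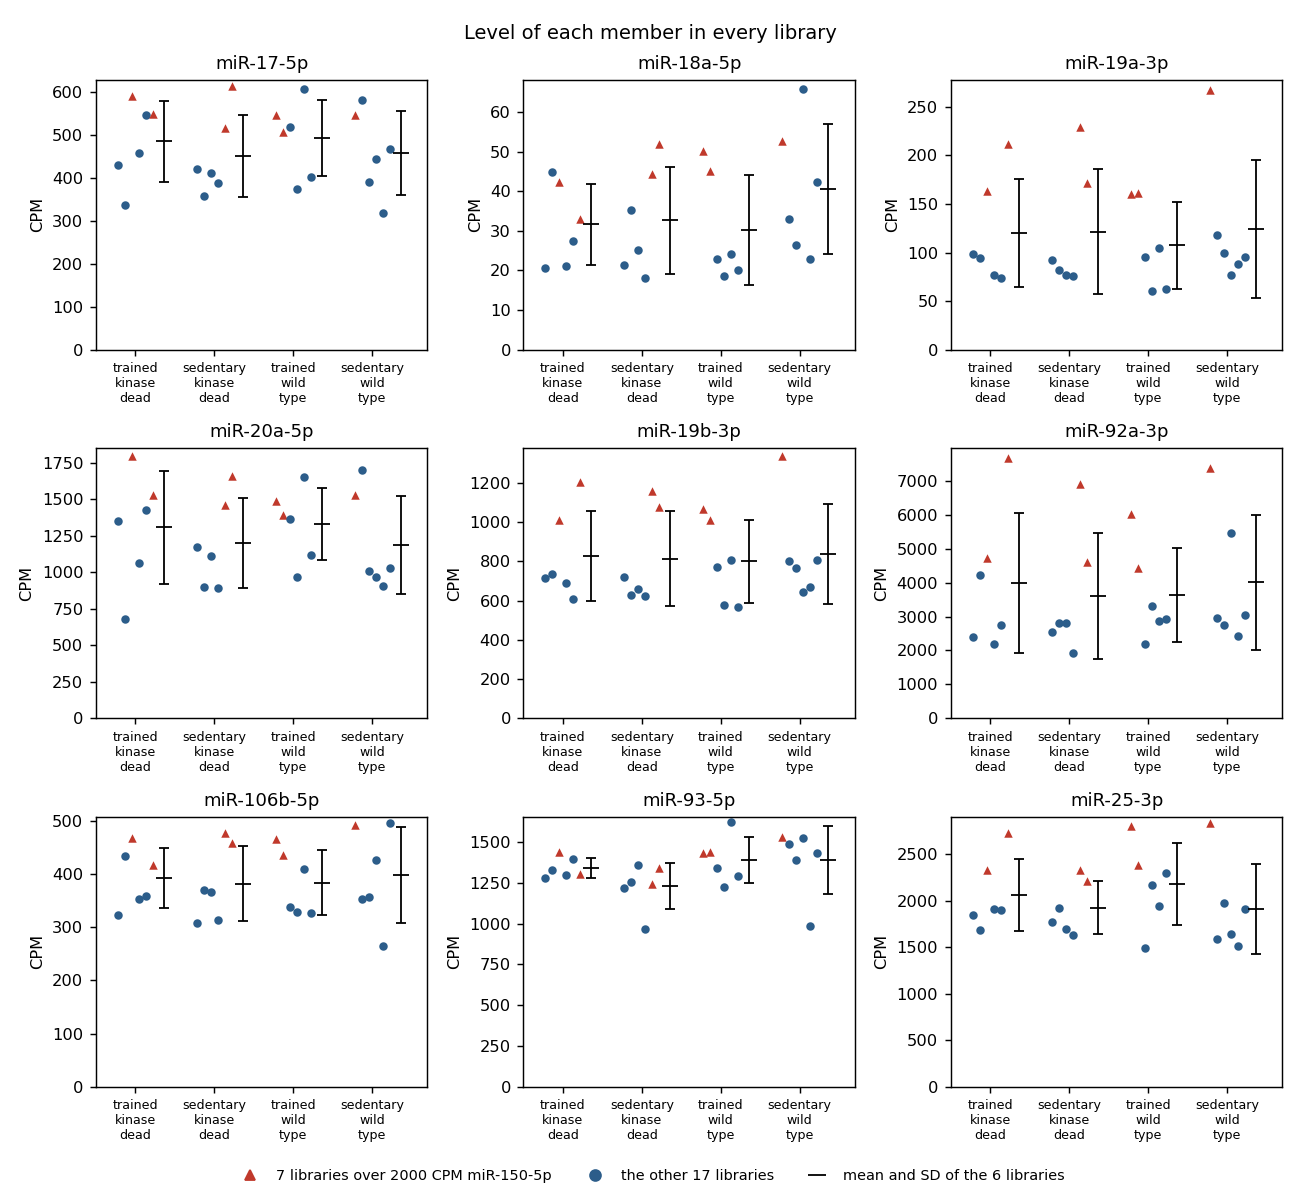
CPM of each member per library (points) in the 4 groups, with the mean and SD of 6 libraries. Triangles mark the 7 libraries over 2000 CPM of miR-150-5p: all 7 lie above every other library for miR-19a-3p and miR-19b-3p, and among the others for miR-93-5p.

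Part of the spread within groups went with the split by miR-150-5p, to a different extent in each member. Across the 7 libraries miR-19a-3p lay at 161 to 267 CPM, with a median of 172 CPM, and across the other 17 at 60.6 to 118 CPM, with a median of 88.1 CPM. The corresponding values of miR-19b-3p were 1011 to 1338 CPM, median 1079 CPM, in the 7 and 566 to 808 CPM, median 692 CPM, in the 17. These 2 members did not overlap between the sets. For miR-92a-3p the 7 libraries lay at 4439 to 7672 CPM, median 6028 CPM, and the 17 at 1934 to 5469 CPM, median 2808 CPM, so the ranges overlapped although the median was 2.15 times as high. This overlap came from 1 library, the shallow sedentary wild type replicate 4.

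The remaining 6 members overlapped between the sets. The median of the 7 over the median of the 17 was 1.87 for miR-18a-5p, 1.44 for miR-20a-5p, 1.32 for miR-106b-5p, 1.30 for miR-17-5p, 1.29 for miR-25-3p and 1.08 for miR-93-5p. Over the 358 miRNAs of at least 10 CPM the middle value of this ratio was 0.917, and 31 of them (8.66%) had all 7 libraries above all 17. Summed, miR-17-92 reached 7557 to 11200 CPM in the 7, against 3931 to 7674 CPM in the 17. miR-106b-25 reached 4008 to 4851 CPM in the 7, against 2762 to 3970 CPM in the 17, with no overlap. The ratio of both sums was 1.77 to 2.55 in the 7 and 1.27 to 2.13 in the 17. In bulk tissue, more cells of a type and more RNA per cell cannot be told apart.

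The 7 libraries were defined by 1 miRNA of the lymphocyte list. The 6 lymphocyte miRNAs (miR-150-5p, miR-142a-5p, miR-142a-3p, miR-155-5p, miR-342-3p and miR-181a-5p) summed to 16130 to 24560 CPM in the 7, against 3488 to 5598 CPM in the 17. Of these, 5, miR-150-5p included, had all 7 libraries above all 17, miR-181a-5p overlapped, and none was at 0 in any library. miR-223-3p, the myeloid marker, lay at 147 to 221 CPM in the 7, against 135 to 242 CPM in the 17. The 4 red cell miRNAs summed to 1406 to 9415 CPM in the 7, against 1338 to 5348 CPM in the 17, and the 5 of striated muscle to 452 to 1171 CPM in the 7, against 725 to 8418 CPM in the 17, with miR-208b-3p at 0 in 17 of the 24 libraries. The 2 endothelial miRNAs summed to 29880 to 63270 CPM in the 7, against 38680 to 75590 CPM in the 17, and the 2 of smooth muscle to 87940 to 123200 CPM in the 7, against 122300 to 187700 CPM in the 17. The 6 epithelial miRNAs summed to 11870 to 14350 CPM in the 7, against 13070 to 24320 CPM in the 17, and the 4 abundant in fat to 39580 to 60920 CPM in the 7, against 48800 to 70140 CPM in the 17. The part of lymphocytes in the members' levels was not tested. Within the 17 libraries, none of the 9 relations between a member and miR-150-5p, which were added after the members' values were seen, passed a permutation test. These libraries were set apart by their low miR-150-5p, at 541 to 1015 CPM. The relations therefore cannot tell how members go with miR-150-5p over its wider range. Pearson's r, with group means taken off, ran from -0.34 for miR-18a-5p to 0.41 for miR-19b-3p, and the smallest adjusted permutation p was 0.530 for r and 0.506 for Spearman's rho. The relation of miR-19b-3p had a rho of 0.36 and r = 0.32 without the 2 libraries farthest from the median miR-150-5p level.

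All 4 X-linked relatives were higher in each of the 7 libraries than in any of the 17. Of the 358 miRNAs of at least 10 CPM, 31 (8.66%) were so too. With a mean of 2.30 CPM over the 24 libraries, miR-18b-5p is outside that background, and in the 17 it was near the limit of detection. miR-106a-5p lay at 27.0 to 46.6 CPM in the 7 libraries, against 4.28 to 7.97 CPM in the 17. The range of miR-20b-5p was 60.8 to 101 CPM in the 7, against 4.103 to 17.7 CPM in the 17. For miR-363-3p it was 28.1 to 77.9 CPM in the 7, against 4.05 to 14.01 CPM in the 17, and for miR-18b-5p 5.20 to 8.73 CPM in the 7, against 0 to 1.59 CPM in the 17. The X copy held 10.1% to 16.4% of miR-92a-3p reads in the 7 and 7.52% to 16.6% in the 17, so that share overlapped. Of the locus-specific opposite arms, miR-92a-2-5p from the X chromosome had 15 reads in the 7 and 3 in the 17, while miR-92a-1-5p from chromosome 14 had 300 reads in the 7 and 492 in the 17. With 0 reads in 15 of the 24 libraries and at most 0.577 CPM, miR-92a-2-5p was at the limit of detection. Its levels overlapped between the sets.

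**Figure D4:**
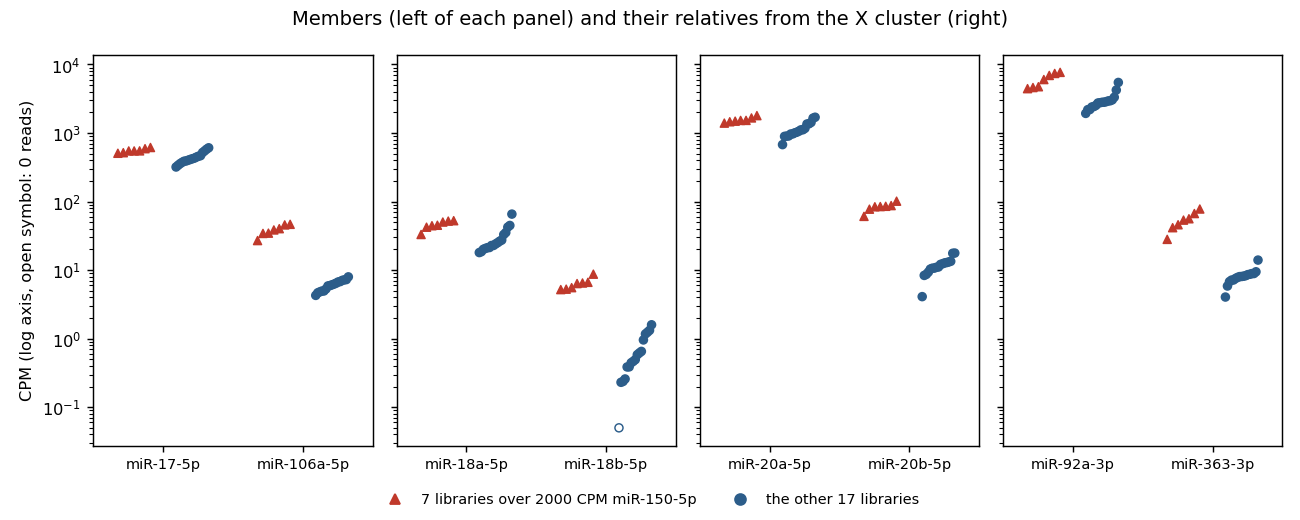
CPM on a log axis of 4 members (left in each panel) and their closest X-linked relatives (right), per library, ordered by value within the 7 libraries over 2000 CPM of miR-150-5p (triangles) and the other 17 (circles). The open circle marks 0 reads of miR-18b-5p in 1 library. The triangles and circles are separate for all 4 relatives and overlap for all 4 members.

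How far members moved together from library to library was examined within the 17 libraries, because the libraries fall into separate sets, and no pooled correlation is given. Of the 36 pairs, 6 passed at an adjusted permutation p under 0.05 for Pearson's r (100000 resamples within groups, log2 CPM with group means taken off), and 7 for Spearman's rho. The share among pairs of other miRNAs is not given, so these counts have no background to be read against. miR-19a-3p and miR-19b-3p had r = 0.92 (rho = 0.92, adjusted permutation p = 0.00198). miR-17-5p and miR-20a-5p had r = 0.87 (rho = 0.83, adjusted permutation p = 0.00198). Members of both pairs share a seed and a transcript. They also differ by only 1 base in the first pair and 2 bases in the second. How mismatched reads were handled is not given, so joint levels and misassigned reads cannot be told apart. The 2 pairs kept r = 0.89 and r = 0.86 without the 2 libraries farthest from the median, and had r = 0.95 and r = 0.89 within the 7 libraries. Here and below, r within the 7 is of log2 CPM with no group means taken off, unlike r over the 17.

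The other passing pairs were miR-18a-5p with miR-92a-3p (r = 0.82, rho = 0.70, adjusted permutation p = 0.0221), miR-18a-5p with miR-106b-5p (r = 0.78, rho = 0.86, adjusted permutation p = 0.0229), miR-106b-5p with miR-93-5p (r = 0.73, rho = 0.72, adjusted permutation p = 0.0340) and miR-17-5p with miR-93-5p (r = 0.65, rho = 0.61, adjusted permutation p = 0.0340). The first of these fell to r = 0.51 without the 2 farthest libraries and was r = -0.29 within the 7. Without the 2 farthest libraries r was 0.79 for miR-18a-5p with miR-106b-5p, 0.63 for miR-106b-5p with miR-93-5p and 0.56 for miR-17-5p with miR-93-5p. Within the 7 libraries r was 0.74 for the pair of miR-18a-5p and miR-106b-5p, 0.34 for that of miR-106b-5p and miR-93-5p and 0.08 for that of miR-17-5p and miR-93-5p. The Spearman-only pair was miR-18a-5p with miR-93-5p (r = 0.60, rho = 0.67, adjusted permutation p = 0.0172 for rho). The 8 pairs with the same seed had a median r of 0.55, and 4 of them passed. The 15 pairs of the same cluster with other seeds had a median r of 0.10, and 1 of them passed. The 18 pairs across clusters had a median r of 0.32 and 2 of them passed, and the 5 of these with the same seed had a median r of 0.31 and 1 of them passed. The pairs share libraries and members, so they are not independent of each other.

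**Figure D5:**
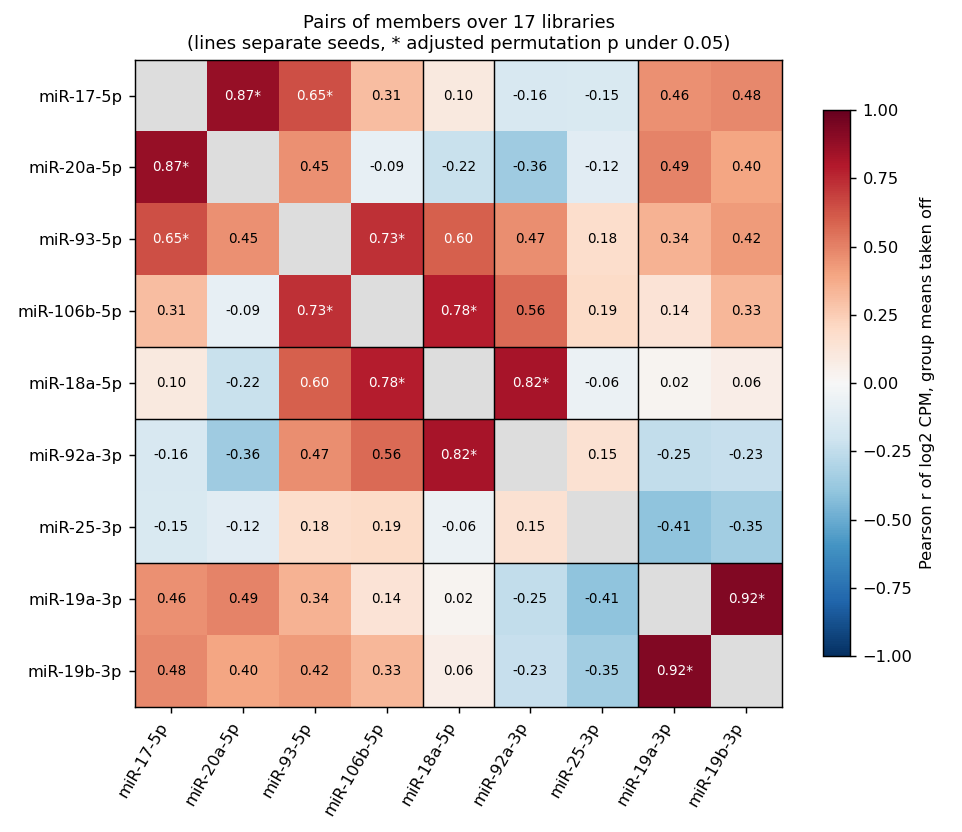
Pearson's r of log2 CPM for each of the 36 pairs of members over the 17 libraries, with group means taken off. Members are ordered by seed (lines), and asterisks mark the 6 pairs with an adjusted permutation p under 0.05, 4 of them within a seed.

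The miRNAs whose pattern was most like each cluster's sum are given as a description over the same 17 libraries, among 349 other miRNAs of at least 10 CPM, of which 347 had reads in all 17. For miR-17-92 they were miR-429-3p (r = 0.87), miR-31-5p (r = 0.83), miR-324-3p (r = 0.83), the cluster's own miR-17-3p (r = 0.81) and let-7i-3p (r = 0.79). Without sedentary wild type replicates 4 and 5, the 2 libraries whose sums lay farthest out, these were r = 0.83, 0.70, 0.82, 0.70 and 0.72. Trained kinase dead replicate 2 was kept in these values. The sum was dominated by miR-92a-3p (r = 0.87 with its own sum), and miR-18a-5p had r = 0.82 with it. The other members followed the sum little, with r = 0.32 for miR-17-5p, 0.12 for miR-20a-5p, 0.11 for miR-19a-3p and 0.10 for miR-19b-3p. From the other cluster miR-93-5p had r = 0.76 with this sum, miR-106b-5p 0.63 and miR-25-3p -0.01. Likeness to the sum is therefore not likeness to each member. miR-429-3p belongs to the epithelial list, and the highest miR-429-3p levels of the 17, 1357 and 1183 CPM, came from sedentary wild type replicate 4 and trained kinase dead replicate 2, the libraries highest in miR-92a-3p among the 17 and the shallowest of the series at 1601209 and 2286275 reads. The whole epithelial list summed to 22750 and 19970 CPM in those 2 libraries, inside the range of 13070 to 24320 CPM of the 17. Of 10 relations to the library total over the 17 libraries, also added after values were seen, none passed, with a smallest adjusted permutation p of 0.300 for r and 0.228 for rho. For miR-92a-3p r was -0.47 and rho -0.22, and r was -0.28 without the 2 farthest libraries.

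For miR-106b-25 the likeness was weaker. miR-375-3p had r = 0.62, miR-17-3p r = 0.57, miR-141-3p r = 0.55, miR-144-5p r = 0.54 and miR-3107-5p r = 0.54. Without the 2 farthest libraries these were r = 0.37, 0.47, 0.46, 0.41 and 0.31. Its own members miR-25-3p and miR-93-5p each had r = 0.76 with the sum. The sums of both clusters had r = 0.50 with each other over the 17 libraries, and r = 0.30 without the 2 libraries farthest out in miR-17-92.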

How the data were processed

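The 24 libraries hold small RNA of subcutaneous fat, extracted with TRIzol and prepared with the NEBNext small RNA kit, per the labels' protocols. The tools named are Bowtie2, featureCounts, Trim Galore and CASAVA 1.8.2, with the build mm10, per the submitters' processing notes. The authors deposited raw read counts for 2045 mature miRNA loci, with no normalization. The sources used here do not give how reads with several matches, mismatches and strand were handled, and near-identical miRNAs are uncertain to that extent. Ligation preferences of small RNA kits affect levels between miRNAs.

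Counts of loci with the same mature accession were summed to 1907 features, of which 582 passed edgeR's filterByExpr. The features under the filter hold 0.015% of the reads. CPM were scaled by TMM. One model of the 4 groups was fitted to the counts with edgeR 4.0.16 (quasi-likelihood test, R 4.3.3) and 6 contrasts were adjusted by Benjamini-Hochberg over all 582 features, with a threshold of 0.05. The code was tested on simulated data. Alternatives were RLE factors, DESeq2 1.42.0, no filter, copies not summed, only the groups compared, a miR-150-5p covariate, and fits without the 7 miR-150-5p-high libraries and without each library in turn. Library totals of 1601209 to 23593237 reads put 3 reads at 0.127 to 1.87 CPM.

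Sequences and locations are from RefSeq (GRCm38.p6, 9 of 9 members matched), and host transcripts from GENCODE. For each comparison the 2 members with the smallest p are given in full. Pair correlations used 100000 permutations (scipy 1.17.1). Members and lists were chosen with earlier results of these data known. Replicate numbers follow the order of the sample records and pair nothing.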

Additional observations from a re-analysis of the deposited data

Results flagged for a closer look

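Of 84 groups of 6 libraries screened for a single library far from the rest (21 quantities, Dixon's criterion), 8 were marked, and chance marks about 1 in 20. Sedentary wild type replicate 1 stood out in 3 members: miR-19a-3p at 267 CPM (77.4 to 118 CPM in the other 5), miR-19b-3p at 1338 CPM (646 to 804 CPM) and miR-25-3p at 2831 CPM (1516 to 1973 CPM). It is the only miR-150-5p-high library of its group. miR-93-5p was low in sedentary kinase dead replicate 4, at 965 CPM (1217 to 1358 CPM in the others), and in sedentary wild type replicate 5, at 983 CPM (1389 to 1528 CPM). Neither is a miR-150-5p-high library.

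The share of reads on the opposite arm stood out in 3 libraries. For the Mir18 hairpin it was 13.4% in trained wild type replicate 4 (5.58% to 8.30% in the others). For the Mir20a hairpin it was 0.684% in trained kinase dead replicate 2 (0.0780% to 0.166%), and for the Mir93 hairpin 1.40% in sedentary wild type replicate 5 (0.930% to 1.10%).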

How the results depend on the processing

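With miR-150-5p as a covariate, 6 miRNAs passed for training averaged over genotypes, all of them higher in trained mice, against 0 without it. No member was among them, and the cause was not tested. In the other 39 counts under an alternative, and in all 144 that leave out 1 library, the count stayed at 0. Of the log2 fold changes of the 2 named members per comparison, 79 of 80 kept their direction under the alternatives. The exception was miR-93-5p in trained mice, kinase dead against wild type, which was 0.0171 with only the groups compared in the fit. Leaving out 1 library turned the sign of 3 small values among them. miR-17-5p with training in kinase dead ranged from -0.0476 to 0.226. In trained mice, kinase dead against wild type, miR-25-3p ranged from -0.163 to 0.0484 and miR-93-5p from -0.0774 to 0.0485. The named members are those with the smallest p, and other members changed sign too. With training in wild type miR-19a-3p ranged from -0.411 to 0.156 and miR-92a-3p from -0.395 to 0.109. Of the unnamed members only miR-20a-5p kept its sign there, at 0.0549 to 0.268. In sedentary mice, kinase dead against wild type, miR-19a-3p ranged from -0.275 to 0.450. Counts of members above and below 0 can therefore change with 1 library. All 48 group values of the cluster sums and their ratio moved by less than 1 SD, and 6 pairs passed with no group means taken off and 5 with RLE factors, against 6 as reported. The scarcest member, miR-18a-5p, had as few as 49 reads in a library. No paired analysis was possible because the labels give the groups no shared replicate numbers.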
